A study of Salmo salar with 189 samples.

Results

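Ciart-Ch14 is the salmon transcript of the clock gene ciart that lies on chromosome 14. It was selected by its name as 1 of the 48 entries deposited for a NanoString clock gene CodeSet. It was measured in 189 samples from 64 juvenile Atlantic salmon (Salmo salar), pre-smolts of about 45 g, with 63 samples per tissue. The tissues were gill, saccus vasculosus (SV) and optic tectum (OT). All fish had been raised in constant light, were moved to a daily cycle that the labels give as 8 h of light and 16 h of dark for 8 weeks (the methods give a shorter day), and were held at 14 °C without food from before the first sampling. A first arm was sampled in this light-dark cycle (LD) at ZT5, ZT9, ZT13, ZT17 and ZT21, hours counted from lights on (zeitgeber time), and then in constant light (LL) from CT1 to CT29 (circadian time). A second arm of other fish was sampled in constant darkness (DD) at the same hours from CT1 to CT29. Each time point held 3 fish per tissue, which gives 63 groups of 3. The methods describe a pair of tanks, so light, arm and tank cannot be told apart where DD is set against LL or against the diel series. CT1 and CT5 of the first arm carry the label LL, while the methods let them close the diel series, and rhythms were tested that way. The labels name the same fish in all tissues except at CT17 in DD, where OT and the other tissues shared 2 of 3 fish. The fish of a group are separate animals, and beyond their tank nothing more is given about them.

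CIART, also called CHRONO, is known from the mouse as a repressor of the clock. It binds the BMAL1 partner of the BMAL1-CLOCK dimer, the activator that drives E-box genes, and damps its activity together with the PER and CRY proteins. Its own gene is among the E-box targets in the mouse, so its transcript cycles there with those of the Per genes. The OT is a midbrain region that receives retinal input, the SV is a vascular organ of the fish hypothalamus, and the gill is the surface for gas and ion exchange.

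The CodeSet counts barcodes bound to a 100-base target, which is shown here because every value of Ciart-Ch14 rests on it. It spans bases 1241 to 1340 of the transcript, and the gene identifier 106570088 is named ciarta on chromosome 14 in the RefSeq annotation of Ssal_v3.1. The designed target, 5′ to 3′ and all in lower case, is
Ciart-Ch14 target: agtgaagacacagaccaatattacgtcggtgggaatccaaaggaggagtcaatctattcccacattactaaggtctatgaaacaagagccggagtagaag
The target had a GC content of 44%, against a median of 47% and a range of 38% to 64% over the 46 targets of the CodeSet. The longest run of bases that it shared with any of the other 45 targets was 8 bases, with Rora-Ch16, whereas the longest run shared by any pair of targets was 12 bases, between Cry2-Ch10 and Per2-Ch3. The first reading frame of the target held 0 stop codons. A second salmon copy of the gene, Ciart-Ch27, was not in the CodeSet, and whether its RNA binds this probe was not tested.

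Values are barcode counts that the authors normalised to spike-in controls, called signal here. The methods name a spike control for scaling between samples and runs, but do not say whether this makes tissues comparable. Each tissue was therefore compared on its own scale. Converted back to whole barcodes, Ciart-Ch14 was counted 165 to 642 times per sample in the OT (median 343), 31 to 353 times in the SV (median 168) and 33 to 213 times in the gill (median 80), of medians of 34579, 12733 and 8575 barcodes in all. The lowest, median and highest signal were 177, 339 and 735 for OT samples, 104, 166 and 293 for SV samples, and 33.7, 80.8 and 177 for gill samples. These ranges carry the scale of each tissue and set no order between tissues. The spread between fish of a group (SD of log2 signal) was 0.20 (OT), 0.32 (SV) and 0.35 (gill), and counting error alone would give 0.08, 0.12 and 0.16. Of the 189 libraries 4 held fewer than 4000 barcodes. The shallowest, the SV sample of replicate 3 at CT21 in LL, held 1385, of which 31 were Ciart-Ch14. The others were the SV sample of replicate 1 at CT29 in LL (3976), the gill sample of replicate 3 at ZT9 (3868) and the gill sample of replicate 2 at CT17 in LL (3767). Within groups, the deviation of Ciart-Ch14 in a sample went with the mean deviation of the other tested entries in that sample, with Pearson r of 0.75 (OT), 0.80 (SV) and 0.56 (gill) over 63 samples each, which share their libraries and their scaling. Values after geometric mean scaling, in which all tested entries of a sample give its divisor, are therefore given beside the results whose call this changes or whose called value it moves by over 1.5 times. The CodeSet held clock genes only, so the identity of the tissues could not be checked against markers.

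The diel series asked whether the transcript varied with the hour of the light-dark cycle. In the OT it did, with its highest values in the dark at ZT17. Signal was 227, 266 and 196 in the 3 fish at ZT5 and 326, 252 and 285 at ZT9. It was 434, 500 and 430 at ZT13 and 735, 597 and 509 at ZT17. The values at ZT13 and ZT17 all lay above every value at ZT5, in the light, and at ZT9, which was also in the dark. At ZT21 the fish had 453, 423 and 419, at CT1 284, 290 and 289, and at CT5 219, 177 and 249. The mean of the ZT17 fish, 614 ± 114 (SD, n = 3), was 2.86 times the mean of 215 ± 36.5 (SD, n = 3) at the closing CT5, and the groups did not overlap. A 24 h cosinor on log2 signal gave an amplitude (mean to peak) of 0.70 (SE 0.05), or 2.63-fold from trough to peak, with the peak at ZT 16.9 (SE 0.31 h). Over 21 samples the exact JTK_CYCLE test gave an adjusted p of 1.87e-07, where 48.8% of the 41 entries tested in the OT passed the threshold of 0.05. The amplitude was the fourth highest of the 41, against a median of 0.24. The geometric mean of the tested entries itself had an amplitude of 0.15 (SE 0.05) with a peak at ZT 16.2, and after scaling by it Ciart-Ch14 had an amplitude of 0.55 (SE 0.03).

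**Figure D1:**
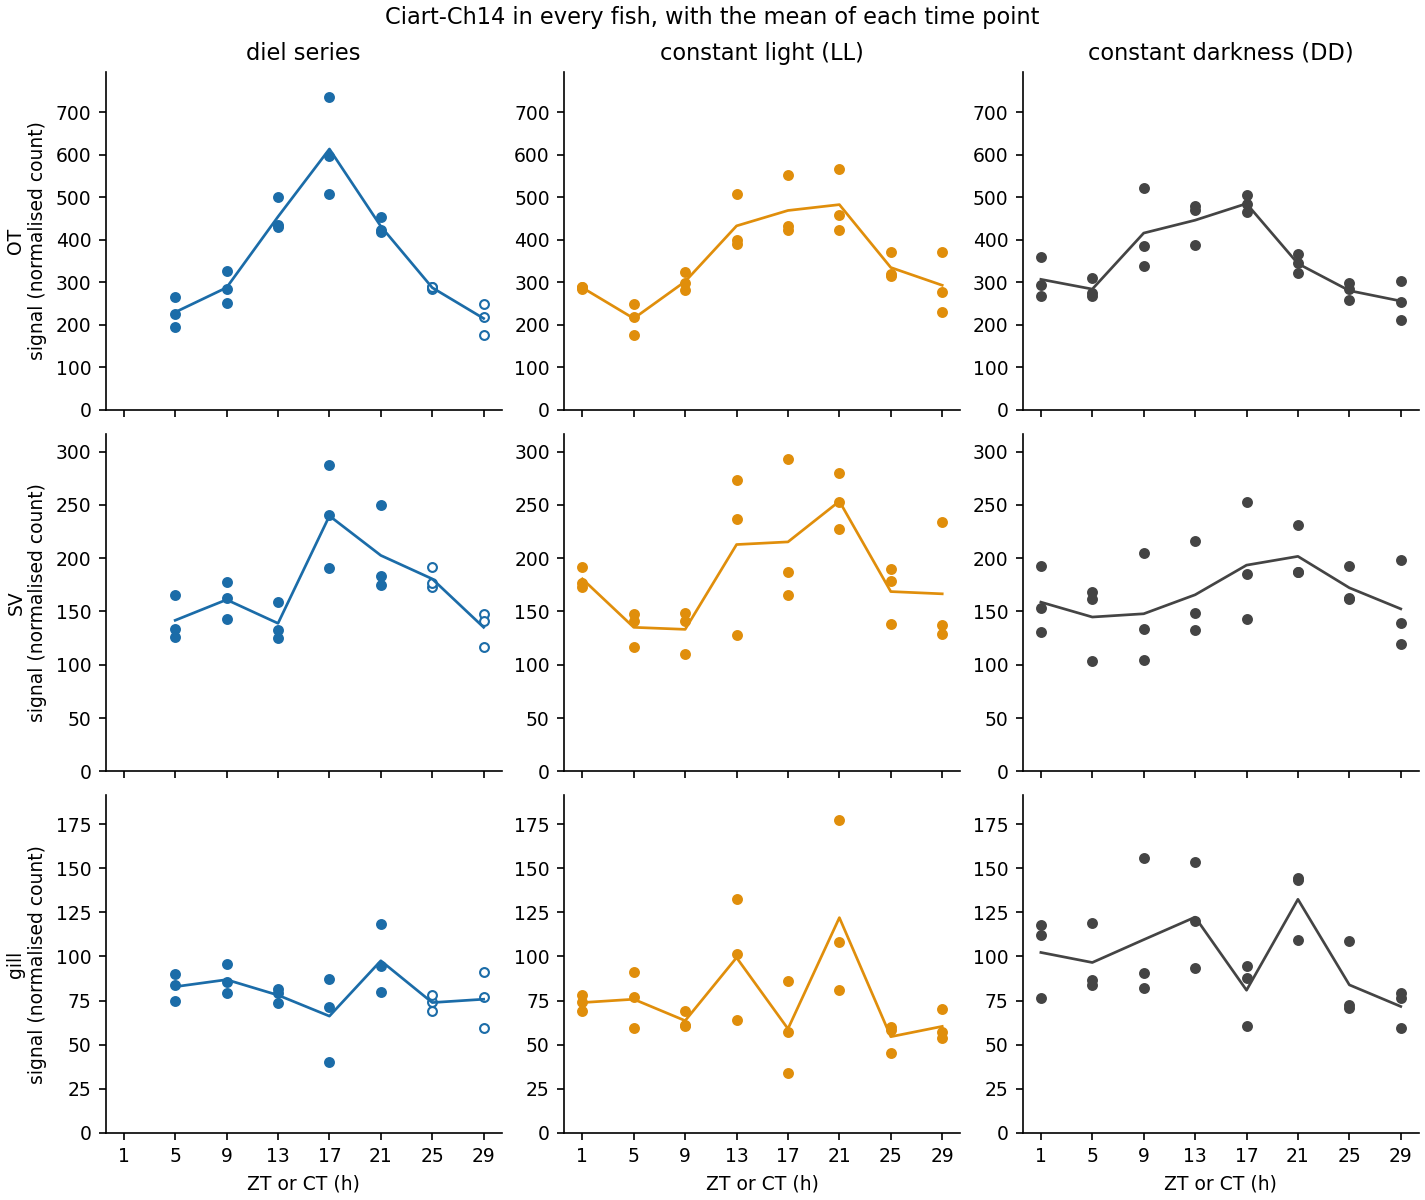
Signal of Ciart-Ch14 (normalised barcode count, y axis from 0) against ZT or CT in hours, with tissues in rows and the diel series, LL and DD in columns. Each point is 1 fish and lines join the means of 3 fish. Open points in the diel column are the CT1 and CT5 samples that also open the LL column, plotted there at 25 and 29 h. The OT diel means rise from 230 at ZT5 to 614 at ZT17.

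In constant conditions the OT transcript was called rhythmic in LL and in DD. Both tests used CT9 to CT29, which hold each clock hour a single time. Whether the rise and fall repeats was therefore not tested. In LL signal was 283, 298 and 325 at CT9 and 508, 391 and 400 at CT13. It was 431, 552 and 424 at CT17 and 423, 459 and 566 at CT21. The fish from CT13 to CT21 all lay above those of CT9 and of CT25, and the 3 groups overlapped one another. Signal then fell to 320, 315 and 370 at CT25 and to 229, 278 and 372 at CT29. The highest mean, 483 ± 73.9 at CT21 (SD, n = 3), was 1.65 times the lowest, 293 ± 72.7 at CT29 (SD, n = 3). The amplitude was 0.41 (SE 0.07) with a peak at CT 17.8 (SE 0.64 h). The exact JTK_CYCLE test gave an adjusted p of 0.000307 over 18 samples, where 31.7% of 41 entries passed. Leaving out replicate 2 of every time point gave 0.0499 in this test. JTK_CYCLE curves with equal ranks and whole shifts gave 0.00255. The latter value is not exact, since its null kept time points of equal rank as separate groups.

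In DD the OT fish were high earlier. The DD values opened at 293, 360 and 268 at CT1 and 269, 309 and 274 at CT5. They were 339, 386 and 522 at CT9, 388, 470 and 480 at CT13 and 506, 466 and 484 at CT17. All 9 of these fish were above all 6 fish of CT25 and CT29. Signal was 344, 321 and 367 at CT21, 258, 298 and 285 at CT25, and 212, 303 and 253 at CT29. The highest mean, 485 ± 19.9 at CT17 (SD, n = 3), was 1.90 times the lowest, 256 ± 45.5 at CT29 (SD, n = 3). The amplitude was 0.46 (SE 0.07), the highest of the 41 entries in DD, with a peak at CT 14.7 (SE 0.55 h). The exact JTK_CYCLE test gave an adjusted p of 0.000486 over 18 samples, where 39% of 41 entries passed. JTK_CYCLE curves with equal ranks and whole shifts gave 0.0146, again not exact, with 10 of the 41 entries called.

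The amplitude in the OT was compared between light conditions at the 6 matched hours from 9 to 29, with labels permuted within hours and p-values adjusted over the 41 entries. The diel amplitude of 0.71 (SE 0.06) exceeded that in DD by 0.25 (SE of the difference 0.09, adjusted permutation p = 0.0378, 29.3% of entries called). Without replicate 2 of each time point this difference was 0.14 (adjusted permutation p = 0.401) and without replicate 1 it was 0.24 (adjusted p = 0.128, permutation), and after geometric mean scaling it was 0.14 (adjusted permutation p = 0.055). The diel amplitude exceeded that in LL by 0.30 (SE 0.09), which did not pass (adjusted permutation p = 0.0839, 17.1% called) and passed after scaling at 0.20 (adjusted permutation p = 0.022). Both comparisons share the diel samples. The amplitudes in LL and DD differed by -0.05 (SE 0.10, adjusted permutation p = 0.8, 2.44% called).

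The time of the fitted OT peak was then compared over the same samples, a comparison that was added after the values were seen. With the period fixed at 24 h and no repeated cycle, a shift of phase and a change of period cannot be told apart. The peak lay 3.14 h later in LL than in DD (permutation p = 0.00206, adjusted over 3 pairs 0.00309). It was 2.22 h later in the diel series than in DD (adjusted permutation p = 0.00165), and 0.92 h earlier in the diel series than in LL (adjusted permutation p = 0.0497). The LL and DD peaks differed by 2.16 h after scaling (adjusted permutation p = 0.0154) and by 2.98 h without replicate 2 (adjusted permutation p = 0.0709), and the diel and LL peaks differed by 0.57 h after scaling (adjusted permutation p = 0.31). The latter call was also lost without replicate 2 (adjusted permutation p = 0.139) and without replicate 3 (adjusted permutation p = 0.415). Among the 9 OT entries that JTK_CYCLE called rhythmic in both LL and DD, 8 peaked later in LL. Ciart-Ch14 had rank 5 of the 9 in this shift, so the median over the 9, 3.14 h, is its own value.

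**Figure D2:**
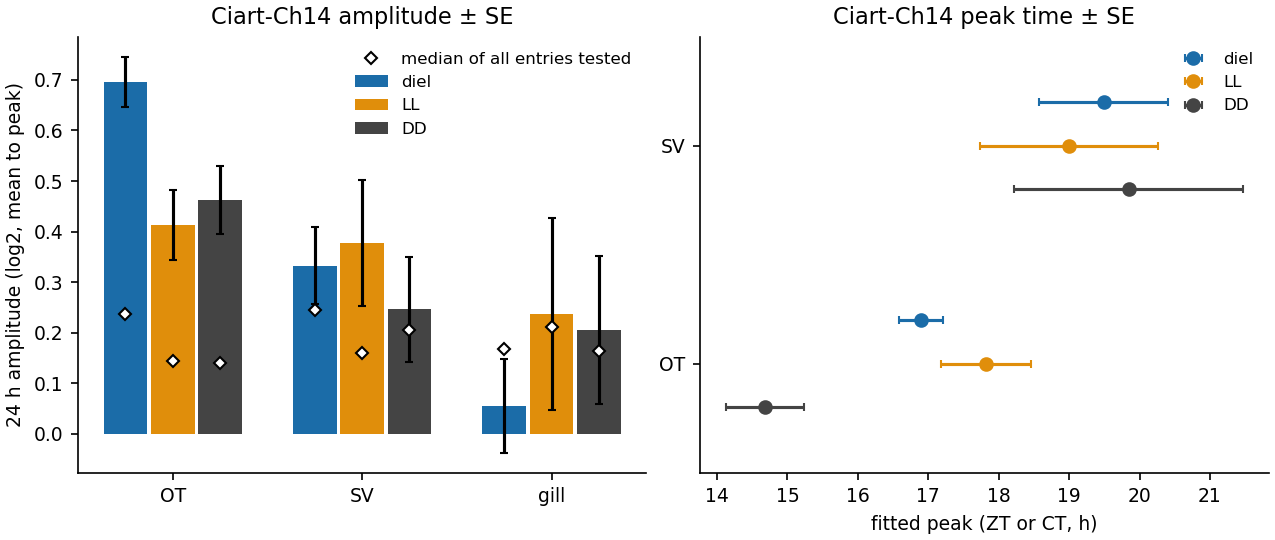
Left, cosinor amplitude of Ciart-Ch14 (log2, mean to peak) by tissue in the diel series, LL and DD, with bars for the estimate, lines for ± SE and diamonds for the median amplitude of all entries tested. Right, fitted peak time in hours ± SE for OT and SV. The OT diel bar stands at 0.70 and the gill diel bar at 0.05, and the OT peak in DD lies at 14.7 h.

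In the SV the diel rhythm was smaller and its call was less secure. Signal was 166, 133 and 126 at ZT5, 178, 143 and 163 at ZT9 and 159, 133 and 125 at ZT13. The 9 fish of these time points therefore spanned only 125 to 178. Signal was 240, 191 and 287 at ZT17 and 249, 175 and 184 at ZT21, then 192, 173 and 177 at CT1 and 116, 148 and 141 at CT5. All 3 fish at ZT17 lay above those of ZT5, ZT9 and ZT13. The mean at ZT17, 240 ± 48.2 (SD, n = 3), was 1.77 times that at CT5, 135 ± 16.6 (SD, n = 3). The amplitude was 0.33 (SE 0.08) with a peak at ZT 19.5 (SE 0.91 h), the tenth highest of 38 entries. The exact JTK_CYCLE test gave an adjusted p of 0.0137 over 21 samples, where 23.7% of 38 entries passed. Benjamini-Hochberg adjustment of the exact p-values over the entries gave 0.0578, whereas the permutation test of the cosinor gave an unadjusted p of 0.00126. JTK_CYCLE curves with equal ranks and whole shifts gave 0.0661. That value is not exact and tends to be too large, so it cannot decide whether the call is lost. Leaving out replicate 1, 2 or 3 of every time point gave adjusted p-values of 0.231, 0.0544 and 0.166 in the exact test, and geometric mean scaling gave 0.000298.

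In constant conditions the SV transcript was not called rhythmic. In LL signal was 149, 141 and 110 at CT9, 237, 128 and 273 at CT13 and 166, 187 and 293 at CT17. The fish at CT13 were split, with 1 at the level of CT9 and the others well above it. Signal was 280, 228 and 252 at CT21, where the last value comes from the library of 1385 barcodes, 138, 190 and 178 at CT25, and 128, 137 and 234 at CT29. The amplitude of 0.38 (SE 0.12) was the third highest of 38, and the exact JTK_CYCLE test gave an adjusted p of 0.168 over 18 samples, where 0% of the 38 entries passed. Without the pair of SV libraries under 4000 barcodes the amplitude was 0.34 (SE 0.14, exact adjusted p = 0.413). The cosinor permutation test gave an unadjusted p = 0.0329, and after geometric mean scaling the exact adjusted p was 0.000755. The median factor by which normalisation had multiplied an SV sample was 0.819 in the diel series, 1.31 in LL from CT9 and 1.03 in DD from CT9, and its part in these values was not tested.

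In DD the SV fish had 153, 193 and 131 at CT1, 162, 169 and 104 at CT5 and 134, 104 and 205 at CT9. They had 148, 133 and 216 at CT13, 185, 252 and 143 at CT17 and 231, 187 and 187 at CT21. Neighbouring time points overlapped, whereas all CT21 fish lay above those of CT5. Signal was 162, 161 and 193 at CT25 and 139, 119 and 199 at CT29. The amplitude was 0.25 (SE 0.10, exact JTK_CYCLE adjusted p = 0.484, where 7.89% of 38 entries passed), and after geometric mean scaling it was 0.13 (SE 0.08, exact adjusted p = 0.211). Without replicate 3 of each time point the exact adjusted p was 0.00173.

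In the gill no rhythm was detected in any condition at this depth and spread. Diel signal was 83.7, 75.0 and 89.9 at ZT5, 85.7, 79.0 and 95.7 at ZT9 and 79.0, 73.6 and 81.5 at ZT13. It was 87.0, 71.4 and 40.0 at ZT17 and 118, 94.3 and 80.1 at ZT21. ZT17, the peak of the OT, held the lowest gill value of the series, 40.0, which came from a library of 4667 barcodes. At CT1 the fish had 69.0, 74.2 and 78.4 and at CT5 59.3, 91.1 and 76.8. The diel amplitude was 0.05 (SE 0.09), rank 38 of 40 from the highest, with an exact JTK_CYCLE adjusted p of 1 over 21 samples, where 15% of 40 entries passed.

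In the gill in LL, signal was 60.4, 69.3 and 61.0 at CT9, 63.9, 101 and 133 at CT13 and 57.3, 33.7 and 85.8 at CT17. The value of 33.7 comes from the library of 3767 barcodes. Signal was 108, 80.8 and 177 at CT21, 45.3, 58.4 and 59.8 at CT25, and 53.7, 57.1 and 70.1 at CT29. All 3 fish at CT21 lay above those of CT25 and CT29, and overlapped those of CT13 and CT17. The amplitude was 0.24 (SE 0.19, exact JTK_CYCLE adjusted p = 1, where 15% of 40 entries passed), and without the shallow library it was 0.41 (SE 0.16, exact adjusted p = 0.213). In DD signal was 118, 112 and 76.7 at CT1, 83.7, 119 and 86.9 at CT5 and 82.3, 90.6 and 156 at CT9. It was 93.4, 154 and 120 at CT13, 94.5, 87.7 and 60.3 at CT17 and 144, 109 and 144 at CT21. CT17 was again below both neighbours in its mean. Its libraries held 7077, 5284 and 5475 barcodes. Those of CT13 held 5629, 8379 and 7966 and those of CT21 8258, 11787 and 11813. The part of depth in these values was not tested. Signal was 70.5, 72.6 and 108 at CT25 and 76.4, 59.4 and 79.1 at CT29, for an amplitude of 0.21 (SE 0.15, exact JTK_CYCLE adjusted p = 0.995, where 10% of 40 entries passed).

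The diel amplitude was compared between tissues by permuting tissue labels within time points, with 21 samples a tissue, because an amplitude on the log scale does not depend on the scale of a tissue. The OT exceeded the SV by 0.36 (SE 0.09, adjusted permutation p = 0.00333), and 10.8% of the 37 entries tested in both passed. The OT exceeded the gill by 0.64 (SE 0.11, adjusted permutation p = 0.00117), the largest difference of the 39 entries tested in that pair, of which 20.5% passed. The SV exceeded the gill by 0.28 (SE 0.12), which did not pass (adjusted permutation p = 0.283, 0% of 36 entries called) and passed after geometric mean scaling at 0.25 (adjusted permutation p = 0.0396). The difference of OT and SV was 0.29 without replicate 2 (adjusted permutation p = 0.155), and that of OT and gill was 0.48 without replicate 1 (adjusted permutation p = 0.104). The 3 comparisons share their tissues and fish.

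Amplitudes did not pass the threshold between light conditions in the SV or the gill. In the SV the differences were -0.05 between diel and LL (SE 0.15), 0.08 between diel and DD (SE 0.14) and 0.13 between LL and DD (SE 0.16), with adjusted permutation p-values of 0.962, 0.859 and 0.867 and 0% of 38 entries called in each. In the gill the differences were -0.19 between diel and LL (SE 0.22) and -0.16 between diel and DD (SE 0.18), with adjusted permutation p-values of 0.755 and 0.399 and 0% of 40 entries called. The fitted gill peaks lay far apart, at 3.22 h (diel), 17.2 h (LL) and 15.8 h (DD). Permuting labels within hours then bounds the difference, so these p-values do not measure the spread between fish alone. The gill difference between LL and DD was 0.03 (SE 0.24, adjusted permutation p = 0.973, 2.5% of entries called).

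Levels in LL and DD were compared with limma at matched times, with all 21 groups of a tissue sharing 1 estimate of the spread. In the gill Ciart-Ch14 was lower in LL than in DD. Averaged over CT9 to CT29, signal was 70.7 in LL and 95.7 in DD (geometric means, n = 18 each), a log2 difference of -0.43 (95% interval -0.66 to -0.20, adjusted p = 0.00391). It was lower in LL at 6 of these 6 time points, by -0.18 to -0.72 on the log2 scale, the fourth largest difference of the 40 entries, whose median was 0.06 and of which 20% passed. Without replicate 1 of each time point the difference was -0.38 (limma adjusted p = 0.131), and without replicate 2 it was -0.39 (limma adjusted p = 0.0849). It was -0.37 without the shallow libraries (limma adjusted p = 0.00895) and -0.48 after geometric mean scaling (limma adjusted p = 7.58e-05). At CT1, the first hour sampled under either label, the gill difference was already -0.44 (95% interval -1.01 to 0.13, limma adjusted p = 0.845, 0% called). At CT5 it was -0.35 (95% interval -0.92 to 0.22, limma adjusted p = 0.466, 5% called). Both hours fell in the light of the daily cycle for the first arm. The F test over the 6 later points did not pass (limma adjusted p = 0.108, 12.5% called), and passed after scaling (limma adjusted p = 0.0134).

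In the OT the level averaged over CT9 to CT29 was 375 in LL and 359 in DD (geometric means, n = 18 each), a log2 difference of 0.06 (95% interval -0.07 to 0.19, limma adjusted p = 0.514, where 51.2% of 41 entries passed). The F test of the 6 differences together nevertheless passed (F = 3.48, limma adjusted p = 0.0141, 48.8% called). It covers any difference at these time points, of level or of shape. This call was lost without replicate 2 (F = 2.87, limma adjusted p = 0.0591) and without replicate 3 (F = 1.44, limma adjusted p = 0.447). Point by point, LL was lower than DD at CT9 by -0.44 (SE 0.16, limma adjusted p = 0.0538, 12.2% called) and higher at CT21 by 0.48 (SE 0.16, limma adjusted p = 0.0134, 39% called). At CT21 the DD fish (321 to 367) lay below all LL fish (423 to 566), but the median of all entries was also 0.33 higher in LL there, and after scaling the difference was 0.06 (limma adjusted p = 0.626). The call at CT21 was also lost without replicate 2 (limma adjusted p = 0.0739) and without replicate 3 (limma adjusted p = 0.157). The difference at CT9 was -0.39 after scaling (limma adjusted p = 0.00278). At CT13, CT17, CT25 and CT29 it was -0.05, -0.06, 0.25 and 0.18 (SE 0.16 each), with limma adjusted p-values of 0.848, 0.924, 0.297 and 0.439, where 9.76%, 12.2%, 17.1% and 0% of entries passed.

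**Figure D3:**
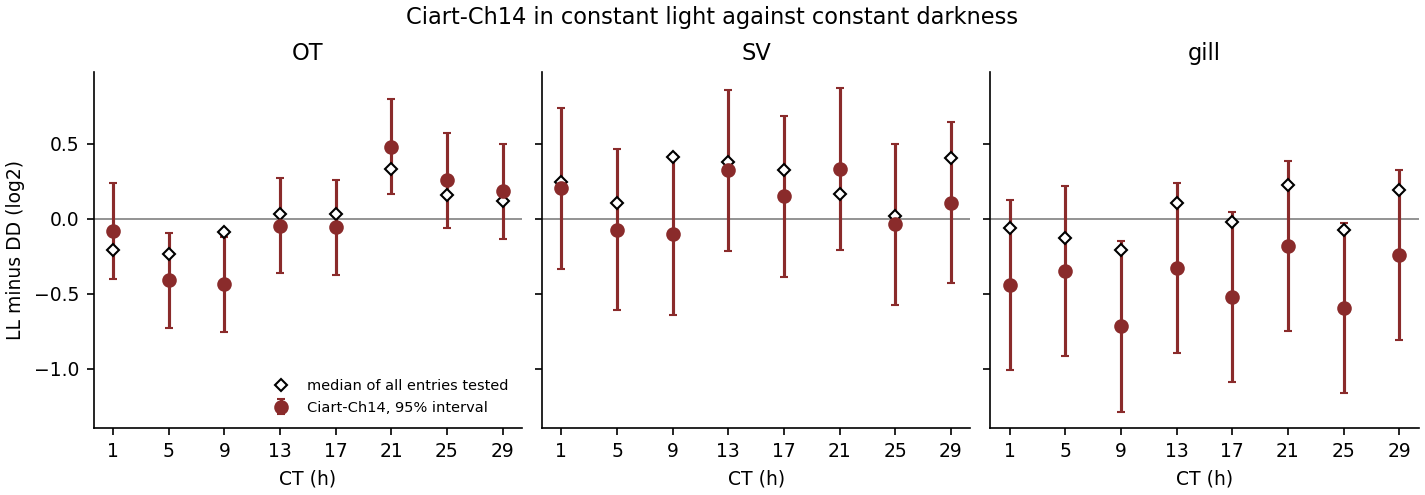
Difference of Ciart-Ch14 between LL and DD (log2, LL minus DD, y axis) at each CT (h, x axis) in OT, SV and gill, with the limma 95% interval, and diamonds for the median difference of all entries tested. In the gill all points lie below 0, and in the OT the points run from -0.44 at CT9 to 0.48 at CT21.

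The OT fish also differed at CT5. The first arm was then still in the light hours of its daily cycle, whereas the second was in darkness. Signal was lower in the first arm (219, 177 and 249) than in the second (269, 309 and 274), with no overlap, a log2 difference of -0.41 (95% interval -0.73 to -0.09, limma adjusted p = 0.0316). The median of the 41 entries at CT5 was -0.24, and 46.3% of them passed. After scaling the difference was -0.23 (limma adjusted p = 0.0483), and without replicate 2 it was -0.22 (limma adjusted p = 0.553). At CT1 the OT difference was -0.08 (95% interval -0.40 to 0.24, limma adjusted p = 0.705, 0% called).

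In the SV no difference in level between LL and DD passed. It was 0.13 over CT9 to CT29 (183 in LL and 168 in DD, geometric means, n = 18 each, 95% interval -0.09 to 0.35, limma adjusted p = 0.289), where 39.5% of 38 entries passed and the median over entries was 0.25. The F test had a limma adjusted p of 0.794 (18.4% called). The differences at CT1 and CT5 were 0.20 and -0.07 (limma adjusted p = 0.851 and 0.944, 0% called in both). The SV difference over CT9 to CT29 turned to -0.17 after geometric mean scaling (limma adjusted p = 0.0593).

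Whether the contrast of LL with DD differed between tissues was tested on the difference of log2 signal between the tissues of each fish. From CT9 to CT29 it was 0.48 higher in the OT than in the gill (35 fish, adjusted permutation p = 0.0144, 25.6% of 39 entries called) and 0.56 higher in the SV than in the gill (36 fish, adjusted permutation p = 0.00324, 25% of 36 entries called). After geometric mean scaling the difference of SV and gill was 0.31 (adjusted permutation p = 0.0288). The OT and SV differed by -0.11 (35 fish, adjusted permutation p = 0.461, 21.6% of 37 entries called). Without replicate 1 the differences from the gill were 0.37 for the OT (adjusted permutation p = 0.309) and 0.52 for the SV (adjusted permutation p = 0.0538), and without replicate 3 that for the OT was 0.59 (adjusted permutation p = 0.0612). At CT1 and CT5 together, with 12 fish, none passed in the exact permutation test. The differences were -0.31 for OT against SV (exact adjusted p = 0.074, 21.6% called), 0.15 for OT against gill (exact adjusted p = 0.695, 0% called) and 0.46 for SV against gill (exact adjusted p = 0.0655, 13.9% called).

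Night levels in constant conditions were set against those of the LD fish at ZT13, ZT17 and ZT21. In the OT the LD night had 491, the LL night 458 and the DD night 420 (geometric means, n = 9 each). The log2 differences from LD were -0.10 in LL (95% interval -0.29 to 0.08, limma adjusted p = 0.478, 19.5% called) and -0.23 in DD (95% interval -0.41 to -0.04, limma adjusted p = 0.0852, 14.6% called). The LL night passed after scaling, at -0.16 (limma adjusted p = 0.025). In the SV the differences were 0.23 in LL (limma adjusted p = 0.367, 2.63% called) and -0.03 in DD (limma adjusted p = 0.944, 0% called). In the gill the LD night had 77.9, the LL night 84.6 and the DD night 108 (geometric means, n = 9 each). The gill differences were 0.12 in LL (95% interval -0.21 to 0.45, limma adjusted p = 0.985, 5% called) and 0.46 in DD (95% interval 0.13 to 0.79, limma adjusted p = 0.0949, 2.5% called). The latter passed after scaling at 0.47 (limma adjusted p = 0.0126) and without the shallow libraries (limma adjusted p = 0.0436).

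The morning level was compared between CT1 and CT25, 24 h apart. In the OT CT25 differed from CT1 by 0.22 in LL (95% interval -0.10 to 0.53, limma adjusted p = 0.321, 24.4% called) and by -0.12 in DD (95% interval -0.44 to 0.20, limma adjusted p = 0.623, 4.88% called). In the SV it differed by -0.11 in LL (limma adjusted p = 0.972, 5.26% called) and by 0.13 in DD (limma adjusted p = 0.764, 0% called). In the gill it differed by -0.44 in LL (limma adjusted p = 0.717, 0% called) and by -0.29 in DD (limma adjusted p = 0.889, 0% called). None of these passed, and with 3 fish a group the gill intervals reached from -1.01 to 0.13 in LL and from -0.85 to 0.28 in DD.

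Because the same fish gave the tissues, the deviation of a fish from its group mean was followed between tissues. Pearson r was 0.33 between OT and SV over 62 fish (permutation p = 0.0645, adjusted over the 3 pairs 0.0968) and Spearman rho 0.29 (permutation p = 0.0866, adjusted 0.13). Between OT and gill r was 0.22 over 62 fish (permutation p = 0.211, adjusted 0.211) and rho 0.24 (permutation p = 0.141, adjusted 0.141). Between SV and gill r was 0.36 over 63 fish (permutation p = 0.0397, adjusted 0.0968) and rho 0.40 (permutation p = 0.014, adjusted 0.042, or 0.0599 without the shallow libraries). Without the 2 fish farthest from the median on the x axis, r was 0.21, 0.14 and 0.39 in the same order. The median r over all entries tested in both tissues was 0.11, 0.12 and 0.09. After geometric mean scaling the r of Ciart-Ch14 rose to 0.35, 0.33 and 0.45 (adjusted permutation p = 0.043, 0.043 and 0.0183), and the median over entries to 0.26, 0.23 and 0.16. Spearman rho after scaling was 0.27, 0.39 and 0.38 (adjusted permutation p = 0.0918, 0.0254 and 0.0254), so OT and SV did not pass by rank.

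The entries most like Ciart-Ch14 were found by Pearson r of mean log2 signal over the 21 groups of a tissue, a description over points that share the light cycle and the libraries. In the OT the closest were the Per1 duplicates Per1-Ch4 (r = 0.96) and Per1-Ch11 (r = 0.95), which encode the PER repressors that partner CRY in the mouse. Per1-Ch4 peaked at ZT 16.8 in the diel series, at CT 16.4 in LL and at CT 14.0 in DD, and Per1-Ch11 at ZT 17.4, CT 17.5 and CT 14.5, beside ZT 16.9, CT 17.8 and CT 14.7 for Ciart-Ch14. Nr1d1-Ch6 (r = 0.84), a Rev-erb gene whose product represses Bmal1 in the mouse, came next, with its diel peak at ZT 15.6. The lowest r in the OT were those of Arntl1-Ch26 (-0.59) and Arntl1-Ch10 (-0.55). Both are copies of the gene of BMAL1, and their diel peaks fell at ZT 7.89 and ZT 8.46, earlier than that of Ciart-Ch14. Over the 40 other entries the median r was 0.35, and it was -0.16 after geometric mean scaling, under which the 3 closest entries stayed the same. The divisor holds Ciart-Ch14 and these entries, so scaling lowers r on average by construction, and the fall is no result about them.

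In the SV the closest entries were Per1-Ch4 (r = 0.84), Tef-Ch3 (r = 0.81), a PAR bZip activator of D-box genes, and Per1-Ch11 (r = 0.78). The lowest were Cry4-Ch13 (0.03), Clock-Ch23 (-0.04) and Per2-Ch3 (-0.12). The median over the 37 others was 0.39. In the gill the closest were Per1-Ch11 (r = 0.77), Per1-Ch6 (r = 0.70) and Dbp-Ch5-1 (r = 0.69), another PAR bZip gene, and the lowest were Hlf-Ch28 (-0.11), Per2-Ch3 (-0.12) and Cry3-Ch22 (-0.23), with a median of 0.29 over the 39 others. A Per1 entry was thus the closest to Ciart-Ch14 in all 3 tissues. None of the 3 closest gill entries was called rhythmic in the diel series there, with exact JTK_CYCLE adjusted p-values of 0.144, 1 and 1. After scaling, 2 of the 3 closest entries of the SV and 3 of 3 of the gill were the same.

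**Figure D4:**
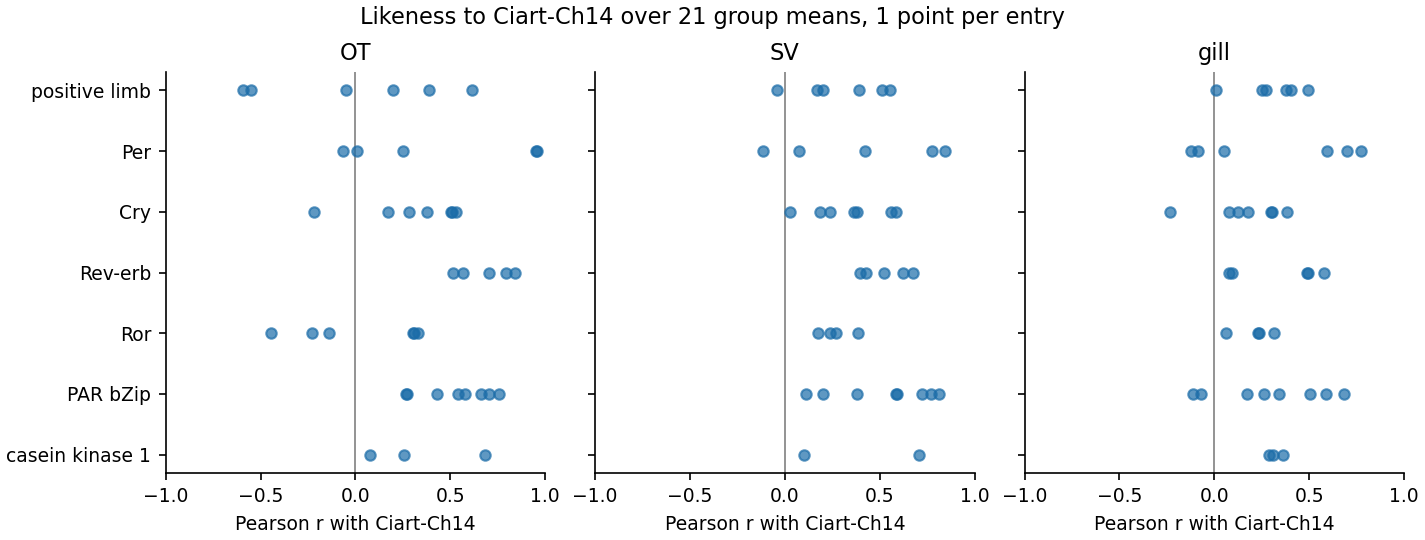
Pearson r of each other tested entry with Ciart-Ch14 over the 21 group means of a tissue (x axis, from -1 to 1), grouped by gene list (y axis), with 1 point per entry. In the OT the Per points at 0.95 and 0.96 lie at the right edge and a pair of positive limb points lies below -0.5.

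The gene lists around Ciart-Ch14 are given for the OT by their counts, with no test between lists. Over all 41 entries 20 were rhythmic in the diel series, and 32 of the 40 others had a positive r with Ciart-Ch14, or 14 of 40 after geometric mean scaling. Scaling lowered the median r over the 40 from 0.35 to -0.16, and the r of Cry2-Ch26 from 0.51 to 0.23. As the divisor holds all 41 entries, r falls on average by construction, and these falls are no result about the entries. The counts and medians of r by list below are before scaling and hold for the unscaled signal only. Of the 6 positive limb entries, genes of the activators BMAL1 and CLOCK, 3 were rhythmic in the diel series and 3 had a positive r with Ciart-Ch14 (median 0.07). All 5 Per entries were rhythmic there, with a median amplitude of 0.76, and 4 had a positive r. Their r ran from -0.07 to 0.96 with a median of 0.25, below that of all entries. Mouse CRY proteins repress BMAL1-CLOCK, and whether each salmon Cry entry encodes such a repressor was not tested. Of the 7 Cry entries 3 were rhythmic and 6 had a positive r (median 0.37). Among them was Cry2-Ch26 with an amplitude of 0.46 and a peak at ZT 20.2. Of the 5 Rev-erb entries 3 were rhythmic and all had a positive r (median 0.71), with amplitudes of 0.58 for Nr1d1-Ch6 and 0.43 for Nr1d2-Ch27. Of the 8 PAR bZip entries 4 were rhythmic and 8 had a positive r (median 0.56), with Dbp-Ch5-1 at an amplitude of 0.59 and Tef-Ch3 at 0.53. Of the 6 Ror entries, whose mouse products activate Bmal1, 0 were rhythmic, and of the 3 casein kinase 1 entries, whose products phosphorylate PER, CKId-Ch28 was (amplitude 0.16).

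In LL against DD over CT9 to CT29, where Ciart-Ch14 did not pass in the OT, 16 of all 41 OT entries were higher in LL and 5 lower. These counts, and those by list below for the OT and the gill, hold for the unscaled signal only. After geometric mean scaling 28 of the 41 OT entries passed, and the OT difference of Ciart-Ch14 was -0.08. All 5 Rev-erb entries and 5 of 7 Cry entries were higher in LL (limma adjusted p under 0.05), 2 of 5 Per entries were higher and 2 lower, and no Ror entry passed. In the gill, where Ciart-Ch14 was lower in LL, 2 of 6 Per entries were lower too, 2 of 7 Cry entries and 1 of 5 Rev-erb entries were higher, and no PAR bZip entry passed. Over all 40 gill entries 3 were higher and 5 lower, Ciart-Ch14 among the latter.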

How the data were processed

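RNA of 189 tissue samples was hybridised to a NanoString CodeSet, which counts barcodes without amplification, and the deposited signal values are barcode counts that the authors normalised to spike-in positive controls in nSolver. The table held 48 entries, whereas the study lists 46 targets. In OT, SV and gill 45, 40 and 46 entries had values, and 41, 38 and 40 were tested. Left out were entries that the study does not list in its CodeSet and those it gives as not expressed in the tissue. The count behind each value was recovered from the step of 1 barcode. This was the largest step of which the values of a sample were whole multiples, within 0.0051 of signal. The remainder for Ciart-Ch14, at most 0.00658 of a barcode, is bounded by this search and does not check the recovery. Samples held 23602 to 50352 barcodes in the OT, 1385 to 20679 in the SV and 3767 to 14716 in the gill.

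JTK_CYCLE was the test of rhythm (periods of 20 and 24 h, Bonferroni over 11 curves, exact null, two-sided, threshold 0.05) over 7 diel or 6 constant time points, and described with a 24 h cosinor on log2(signal + 1). A pseudocount of 1 understates the change of low values. Levels were tested with limma 3.58.1 in R 4.3.3. Amplitudes, peak times and fish were tested by two-sided permutation with 100000 resamples, whose smallest p is 1e-05, or over all 400 ways. All p-values were adjusted by the Benjamini-Hochberg method over the entries of a comparison, except those of JTK_CYCLE, those of the cosinor permutation, which are unadjusted, and those adjusted over 3 pairs. Fish of a group were separate animals from shared tanks, so p-values refer to these fish and tanks only. The amplitude permutation also depends on the fitted peak times. Where the peaks oppose, its p-value can be small though the difference lies within its SE. JTK_CYCLE, the cosinor, the amplitude permutation, the barcode step and limma were tried on simulated data. The tests of peak times, of LL minus DD between tissues and of fish deviations, and the scaling, were not. Named beside Ciart-Ch14 are, in each tissue, the 3 entries with the highest and the 3 with the lowest r, and up to 2 entries a list. One entry that this rule names is not reported here. Ciart-Ch14, the lists and the form of the JTK_CYCLE curves were chosen with earlier results of these data known. Alternatives were the curve form, the test, the adjustment, the pseudocount (0 and 10), the filter, geometric mean scaling, the LD points alone, the fish as a block, and each replicate left out.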

Additional observations from a re-analysis of the deposited data

Results flagged for a closer look

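These results of Ciart-Ch14 differed between tissues or light conditions in a test of the difference itself. The diel amplitude (log2) was higher in the OT than in the SV by 0.364 and higher in the OT than in the gill by 0.641. In the OT it was higher in the diel series than in DD by 0.247. From CT9 to CT29 the difference of LL and DD (log2) was 0.476 higher in the OT than in the gill and 0.558 higher in the SV than in the gill. Each of these 5 calls was lost without at least 1 replicate number.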

How the results depend on the processing

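Over 66 results and 455 alternative values, 385 kept their direction and side of the threshold. Those without a test counted as kept if they moved by less than the spread between replicates. The pseudocount and the filter on entries moved none of the results. The cause was not tested for any change. The SV diel rhythm (exact adjusted p) was lost with Benjamini-Hochberg adjustment (0.0578), the 5 LD time points alone (0.0863) and each replicate left out (0.0544 to 0.231). With equal-rank curves its JTK_CYCLE p was 0.0661, a value that is not exact and tends to be too large. The SV rhythm in LL passed in the cosinor permutation (unadjusted p = 0.0329) and after geometric mean scaling (0.000755), and in DD its exact p ran from 0.00173 to 1 over left-out replicates.

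After geometric mean scaling these passed the threshold (log2): the diel amplitude of SV minus gill (0.25), that of diel minus LL in the OT (0.20), the OT LL night minus LD night (-0.16), the gill DD night minus LD night (0.47), the gill F test (4.41), the OT difference at CT9 (-0.39), and the fish deviations of OT and SV (Pearson r = 0.35, but not by Spearman rho), OT and gill (0.33) and SV and gill (0.45). Lost were diel minus DD amplitude in the OT (0.14), its peak difference of diel and LL (-0.57 h) and the OT difference at CT21 (0.06). The highest r fell to 0.73 for the SV entries and 0.64 for those of the gill. Lower r after scaling is in part fixed by the divisor, which holds all tested entries. The sign turned, with no call on either side, for the gill amplitude of LL minus DD (-0.024), LL minus DD in the OT at CT1 (0.087) and over CT9 to CT29 (-0.081), in the SV at CT1 (-0.039) and over CT9 to CT29 (-0.17), CT25 minus CT1 in OT LL (-0.024) and SV DD (-0.19), the SV DD night (0.067), the gill LL night (-0.021), and LL minus DD of OT minus SV over CT9 to CT29 (0.085) and at CT1 and CT5 (0.044). Without the shallow libraries the gill DD night minus LD night passed (0.46).

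Leaving out each replicate number in turn gave these ranges (log2). Diel amplitude was 0.29 to 0.43 for OT minus SV and 0.48 to 0.63 for OT minus gill. Between light conditions amplitude was 0.14 to 0.35 for OT diel minus DD, -0.14 to 0.049 for OT LL minus DD, -0.13 to 0.29 for SV diel minus DD, -0.11 to 0.32 for SV LL minus DD, -0.38 to 0.041 for gill diel minus LL and -0.27 to 0.32 for gill LL minus DD. Gill diel minus LL was called without replicate 2 (adjusted permutation p = 0.008), a p-value that depends on the fitted peak times as well as on the spread. OT peak times differed by 2.15 to 4.52 h between LL and DD and by -1.54 to -0.37 h between diel and LL. In the OT, LL minus DD was -0.18 to 0.031 at CT1, -0.55 to -0.22 at CT5, -0.26 to 0.061 at CT13, -0.21 to 0.026 at CT17, 0.41 to 0.57 at CT21 and -0.00491 to 0.33 at CT29, and its F was 1.44 to 3.48. In the SV, LL minus DD at CT5 was -0.33 to 0.12, the DD night minus LD night -0.13 to 0.051, and CT25 minus CT1 -0.23 to 0.074 in LL and -0.085 to 0.32 in DD. In the gill, LL minus DD over CT9 to CT29 was -0.53 to -0.38 and the LL night minus LD night -0.31 to 0.35. LL minus DD between tissues was 0.37 to 0.59 (OT minus gill, CT9 to CT29), -0.00770 to 0.26 (the same, CT1 and CT5) and 0.52 to 0.64 (SV minus gill, CT9 to CT29).

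With the fish as a replicate block, a pairing that the labels give, the diel amplitude differences of 0.36, 0.64 and 0.28 had adjusted permutation p-values of 0.0016, 0.00877 and 0.076, which changed no call. LL and DD fish were separate and could not be paired. A count model on the recovered barcodes was not run. Gill and SV samples held as few as 33 and 31 barcodes of Ciart-Ch14.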
